A study of Mus musculus with 4 samples.

Results

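T cells and natural killer (NK) cells were sought among single cells of mouse tibial and femoral epiphyses, the cartilage-rich ends of the long bones. A barcode was taken as a member when its UMIs (unique molecular identifiers, each standing for a captured RNA molecule) of Cd3d, Cd3e, Cd3g, Trbc2, Nkg7 and Klrd1 summed to at least 8 per 10000 UMIs. It also had to hold under 5 of Mcpt8, under 2 of Siglech and under 5 of Cd79a plus Cd79b on the same scale, which removes basophil, plasmacytoid dendritic and B cell RNA. The rule was applied to barcodes with at least 500 genes and at most 15% mitochondrial UMIs. It found 336 members among 30952 kept barcodes, out of 39898 in all. The members were thus chosen by the measured levels of these 6 genes, the exclusion genes and 2 quality values, so those levels are given as a description and nothing is supported with them.

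The series holds 4 libraries of 10x Chromium 3′ data, 1 for each genotype and age. The wild-type mice and the mice with the genotype Sox9fl:fl AcanCreERT2/+ were each taken at postnatal days 13 and 19. In the mutants both Sox9 alleles are floxed, and a tamoxifen-inducible Cre is expressed from the locus of Acan, the gene of the cartilage proteoglycan aggrecan, a driver known for its activity in chondrocytes. The wild-type label names neither the floxed alleles nor the Cre. The sources used here give neither the tamoxifen schedule nor the floxed exons, the strain background or the number of mice per library. The series' design text names other ages and genotypes, and the sample labels were followed.

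T cells recognise antigen through the T cell receptor, whose alpha and beta chains (constant parts Trac, Trbc1 and Trbc2) signal through the CD3 chains Cd3d, Cd3e, Cd3g and Cd247. NK cells lack a rearranged receptor and read target cells through inhibitory and activating receptors, among them Klrd1 (CD94), Ncr1 (NKp46) and the Ly49 family encoded by the Klra genes. Both kill with granules that hold granzymes and perforin, and both pass through the marrow, where neutrophils fill granules of their own with the proteases Elane, Prtn3 and Ctsg and the peroxidase Mpo.

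Library depth lay between 70507107 and 76080803 UMIs. Sox9, the targeted gene, was at 316 CPM (UMIs per 1000000) in the non-member barcodes of the wild type at day 13, 178 in the wild type at day 19, 152 in the mutant at day 13 and 109 in the mutant at day 19. Members held 11, 6, 8 and 8 Sox9 UMIs in the same order, too few for a check of the label within them. Col2a1, the main cartilage collagen, gave 2904, 518, 368 and 847 UMIs in members, and was found in nearly all member barcodes of every cluster, so cartilage RNA was present in barcodes of every cluster. Across library pairs 149 barcode sequences were shared, none of them between member sets, and 1 member barcode occurred in another library. Scrublet, at a fixed score, marked 1, 0, 2 and 0 members as doublets.

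The promoters of 6 genes that the results turn on are shown from 250 bases before to 50 bases after the start of the gene, 5′ to 3′ on the gene's own strand, from RefSeq on GRCm38.p6. Nkg7 is shown because it carried most of the members' score. Cd3d, Cd3e and Cd3g are shown because the first and last were found without the second in NK-like barcodes, and Klra4 and Klra3 because their levels differed in opposite directions between genotypes. The windows are Nkg7 at chr7:43436888-43437187 on the plus strand, Cd3d at chr9:44981536-44981835 on the plus strand, Cd3e at chr9:45009562-45009861 on the minus strand, Cd3g at chr9:44980382-44980681 on the minus strand, Klra4 at chr6:130067222-130067521 on the minus strand and Klra3 at chr6:130337577-130337876 on the minus strand. Capitals mark exact matches on either strand to 3 words: TGTGGT for RUNX factors, AGGTGT for T-box factors such as Eomes and Tbx21, and AGGAAG for ETS factors.
Nkg7: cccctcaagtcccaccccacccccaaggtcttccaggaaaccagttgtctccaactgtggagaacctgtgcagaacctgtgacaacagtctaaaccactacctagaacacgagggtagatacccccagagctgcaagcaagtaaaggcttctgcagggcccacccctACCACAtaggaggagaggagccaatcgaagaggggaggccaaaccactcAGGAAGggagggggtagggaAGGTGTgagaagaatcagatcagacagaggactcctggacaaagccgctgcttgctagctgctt
Cd3d: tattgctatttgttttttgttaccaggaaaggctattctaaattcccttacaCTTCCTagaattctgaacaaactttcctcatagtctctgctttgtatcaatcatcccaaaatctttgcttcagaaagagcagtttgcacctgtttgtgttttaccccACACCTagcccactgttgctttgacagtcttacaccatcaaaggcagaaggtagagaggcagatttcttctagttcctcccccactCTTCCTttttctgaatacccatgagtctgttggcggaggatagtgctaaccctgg
Cd3e: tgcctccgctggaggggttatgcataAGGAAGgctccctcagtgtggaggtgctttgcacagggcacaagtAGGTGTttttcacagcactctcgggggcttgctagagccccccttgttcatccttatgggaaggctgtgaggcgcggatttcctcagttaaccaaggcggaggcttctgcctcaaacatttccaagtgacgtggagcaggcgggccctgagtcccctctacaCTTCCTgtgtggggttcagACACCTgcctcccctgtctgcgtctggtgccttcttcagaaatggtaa
Cd3g: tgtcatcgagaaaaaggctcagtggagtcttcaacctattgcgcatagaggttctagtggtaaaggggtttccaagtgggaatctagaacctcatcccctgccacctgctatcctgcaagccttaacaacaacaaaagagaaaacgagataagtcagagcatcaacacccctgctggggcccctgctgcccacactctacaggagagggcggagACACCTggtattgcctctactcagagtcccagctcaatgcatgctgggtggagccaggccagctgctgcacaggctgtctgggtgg
Klra4: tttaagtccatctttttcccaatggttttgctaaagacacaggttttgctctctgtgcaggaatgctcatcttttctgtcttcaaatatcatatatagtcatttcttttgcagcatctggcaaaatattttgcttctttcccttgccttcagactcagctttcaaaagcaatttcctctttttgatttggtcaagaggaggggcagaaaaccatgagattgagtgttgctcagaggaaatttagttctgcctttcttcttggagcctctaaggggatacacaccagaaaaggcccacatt
Klra3: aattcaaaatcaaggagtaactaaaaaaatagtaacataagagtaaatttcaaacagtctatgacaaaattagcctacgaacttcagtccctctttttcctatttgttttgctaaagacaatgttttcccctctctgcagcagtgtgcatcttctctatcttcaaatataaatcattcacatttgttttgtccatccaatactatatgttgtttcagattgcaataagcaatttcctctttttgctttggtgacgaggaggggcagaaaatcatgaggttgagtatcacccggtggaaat

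Cd3d and Cd3g lie side by side on chromosome 9 and are read away from each other, with Cd3e beyond Cd3d. The Nkg7 window held a RUNX word at -83, an ETS word at -34 and a T-box word at -14, each counted from the start of the gene to the first base of the match. Cd3d held a T-box word at -91 and ETS words at -198 and -5. Cd3e held T-box words at -179 and 3 and ETS words at -224 and -17. Cd3g held a T-box word at -36. None of the 3 words occurred in the Klra4 or Klra3 window, which says only that these letters are not there. Among 27025 RefSeq promoters of the same length, 16.9% held the RUNX word, 13.9% the T-box word and 35.2% the ETS word, so a match is a description and not a binding site. The windows follow the RefSeq starts. The ends of 4 of the 6 windows lay in the 5′ end of a GENCODE transcript of the same gene, and those of Cd3e and Klra3 did not.

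The label was checked against the members' other genes, and it held for only some of them. Nkg7, which encodes a granule membrane protein of killer lymphocytes, supplied 69.5% of the score UMIs, and 117 of the 336 members had Nkg7 as their only rule gene. A UMI of any CD3 gene was present in 152 members, and a Cd3e UMI in 35. For 22 members the score rested on 1 or 2 UMIs. Just inside the threshold, 34 barcodes scored from 8 to 9, of which 17 were rich in neutrophil granule genes and 12 had a CD3 UMI. Just outside it, 28 barcodes scored from 7 to 8, of which 13 were rich in granule genes and 10 had a CD3 UMI.

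Clustering the 336 members without batch correction gave 7 clusters, numbered from 0. Cluster 1, with 56 barcodes, was T-like. It had Trbc2 in 51 barcodes, Cd3d in 45, Cd3g in 38, Cd3e in 29, Trac in 26 and Bcl11b, a T lineage transcription factor, in 18. The coreceptors were sparse, with Cd8b1 in 6 barcodes, Cd4 in 4 and Cd8a in 2, so the cluster was not divided into CD4 and CD8 cells. Cluster 3, with 87 barcodes, was NK-like, with Gzma (granzyme A) in 79 barcodes, Klrd1 in 74, Ncr1 in 53, Eomes, a T-box factor of NK cells, in 52, and Klre1, an NK lectin-like receptor, in 40.

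Cluster 0, with 61 barcodes, was placed with chondrocytes by the listed markers, with 6 of them among its 25 leading genes. That name was not used, because NK genes were found in many of its barcodes, and the cluster is left unnamed here. Its first leading genes, Meg3, Matn1 and Ucma, were found in 16, 19 and 16 barcodes. Of 174 Matn1 UMIs in its wild-type barcodes at day 13, 155 lay in 1 barcode. Cluster 0 also held Nkg7 in 55 barcodes, Ccl5 in 51, Klrd1 and Gzma in 47 each and Ncr1 in 17, beside Col2a1 at 13100 CPM. Its median barcode held 96.6 (wild type, day 13), 44.4 (wild type, day 19), 26.3 (mutant, day 13) and 26.6 (mutant, day 19) chondrocyte marker UMIs per 10000. In the same order, neutrophil-rich other barcodes had medians of 96.6, 14.9, 38.3 and 20.2, and cartilage-rich ones 910, 848, 359 and 445. The highest cluster 0 barcode held 1061. Cluster 2, with 16 barcodes, was placed with neutrophils by the listed markers, against the label. It held the neutrophil genes S100a8 and S100a9 in 16 of 16 barcodes and Cd3d in 12, and 9 of the 16 had only 1 or 2 score UMIs. Cd3d was also found in 7.66% of neutrophil-rich barcodes outside the rule. Cluster 6, with 11 barcodes, was led by erythroid genes, with Hbb-bs at 94630 CPM. The clusters were built on these genes, so their markers describe them and are not tested.

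Clusters 4 and 5, with 54 and 51 barcodes, also went against the label. Cluster 4 held Prtn3 at 12640 CPM, Elane at 9456, Ctsg at 6505 and Mpo at 5950. Cluster 5 held Elane at 14610 CPM together with Camp, Fcnb, Chil3 and S100a9, genes of neutrophil granules and of maturing neutrophils. Nkg7 was the only rule gene in 54 of 54 and 49 of 51 of these barcodes. No Cd3e UMI was found in either cluster, which allows a UMI in up to 5.56% of barcodes in cluster 4 and 5.88% in cluster 5 and does not limit the share of cells that express it. Their median depths were 12387 and 14379 UMIs, against 2780 in the NK-like and 2967.5 in the T-like cluster. They are called granule-gene barcodes here, and their leading genes are those of neutrophil granules. The heat map of detection by cluster shows the 3 patterns side by side.

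**Figure D1:**
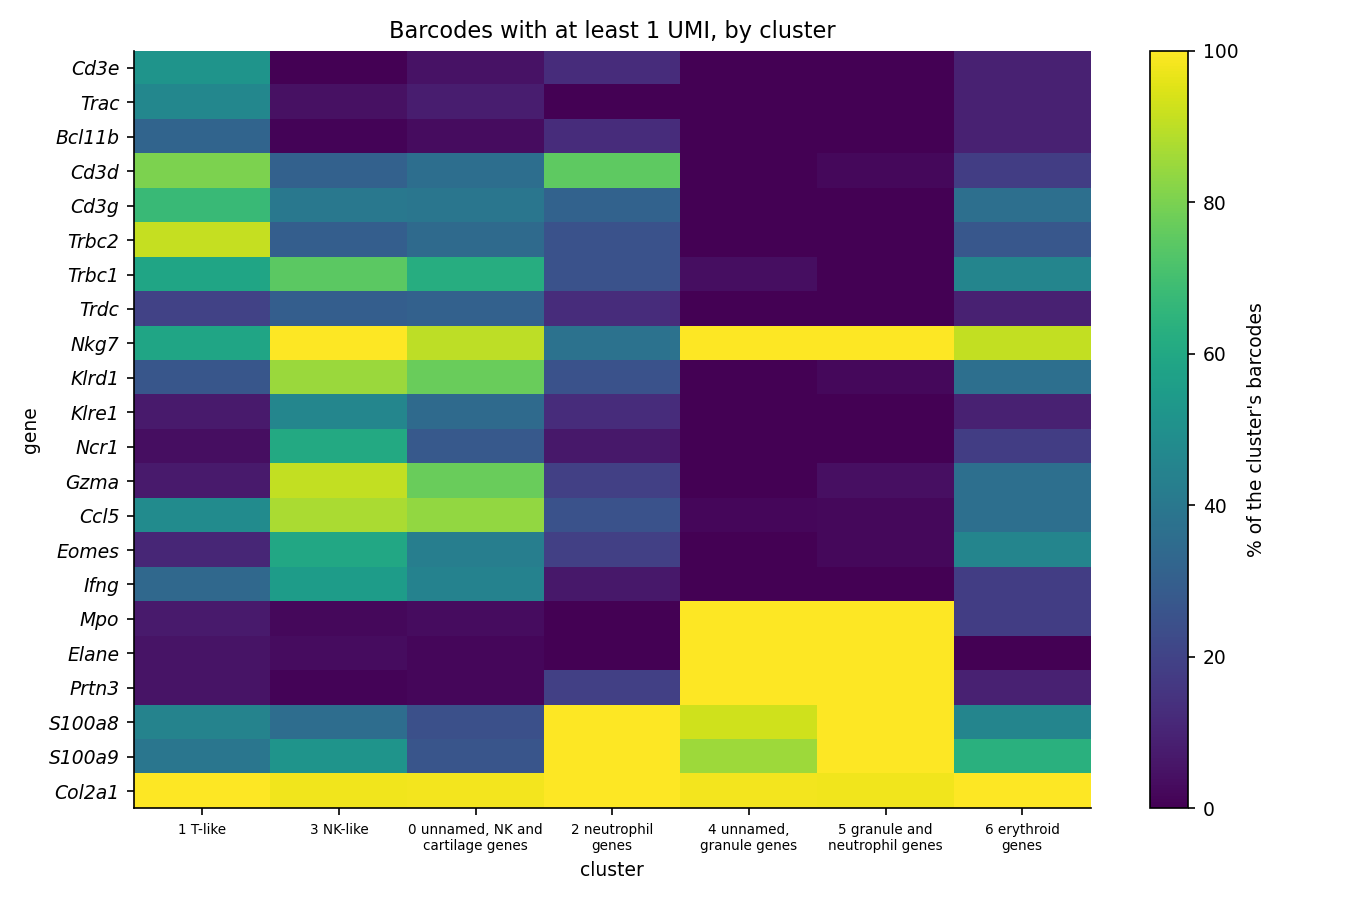
Share of each cluster's barcodes (colour, 0 to 100%) with at least 1 UMI of 22 genes (rows), for the 7 clusters of members (columns). Cd3e, Trac and Trbc2 are found most often in cluster 1, and Klrd1 and Gzma in clusters 3 and 0. Trbc1 and Trdc are found more often in clusters 3 and 0 than in cluster 1. In clusters 4 and 5 Nkg7 stands with Mpo, Elane and Prtn3 but largely without the other lymphoid genes. Detection is not adjusted for depth, which is deepest in clusters 4 and 5.

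The granule-gene barcodes fell unevenly over the libraries. Members with Mpo, Elane, Prtn3 and Ctsg summed to at least 20 per 10000 numbered 1 in the wild type at day 13, 47 in the wild type at day 19, 9 in the mutant at day 13 and 51 in the mutant at day 19. They held 11, 81.7, 39.1 and 64.8% of the members' UMIs in the same order. A sum over all members therefore weighed lymphoid and granule-gene barcodes differently in each library, and counts without these barcodes are given beside the main ones. Among barcodes outside the rule, 345 passed the same granule criterion. Nkg7 stood at 214, 245, 217 and 279 CPM in them, against 1.4, 11.8, 3.3 and 12.9 CPM in all non-members. Outside the rule, Nkg7 was thus higher in barcodes with granule genes than in all non-members, in all 4 libraries. Nkg7 is a rule gene, so these levels are a description and are not compared with those of members.

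**Figure D2:**
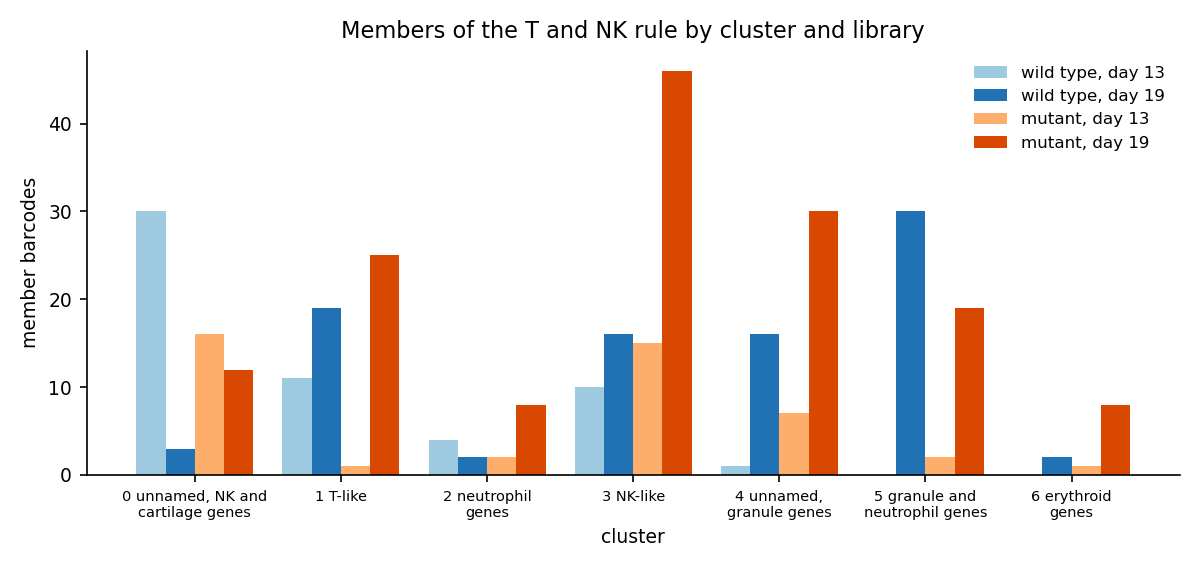
Number of member barcodes (y axis) in each of the 7 clusters (x axis), with 1 bar per library. Clusters 4 and 5 are nearly empty in the wild type at day 13, with 1 and 0 barcodes, and hold 16 and 30 in the wild type at day 19.

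Members made up 0.883% of kept barcodes in the wild type at day 13 (56 of 6340; exact Clopper-Pearson 95% interval 0.668 to 1.15). They made up 1.22% in the wild type at day 19 (88 of 7241; 0.976 to 1.5). In the mutant they made up 0.592% at day 13 (44 of 7429; 0.431 to 0.794) and 1.49% at day 19 (148 of 9942; 1.26 to 1.75). Of kept barcodes, the wild-type and mutant intervals overlapped at each age, and within the mutant the 2 ages did not overlap. The intervals cover counting error only. With 1 library per group there was no test between genotypes or ages.

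Without the granule-gene barcodes the shares were 0.868, 0.566, 0.471 and 0.976% in the same order. The wild type then had its higher share at day 13, whereas with them it had the higher share at day 19. The mutant was higher at day 19 in both counts. In the T-like and NK-like clusters alone, the shares were 0.331, 0.483, 0.215 and 0.714%. As a share of blood cell barcodes, those with at least 5 UMIs per 10000 of 6 pan-leukocyte genes (Ptprc, Coro1a, Laptm5, Rac2, Arhgdib and Cd53), members made up 5.17, 2.0, 2.28 and 3.1%. The order of the wild-type ages was thus opposite for the 2 denominators. Of blood cell barcodes the intervals of the genotypes did not overlap, at 3.92 to 6.68 for the wild type and 1.66 to 3.05 for the mutant at day 13, and 1.61 to 2.46 and 2.63 to 3.64 at day 19. Of kept barcodes without granule genes they did not overlap at day 19, at 0.407 to 0.767 and 0.792 to 1.19.

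**Figure D3:**
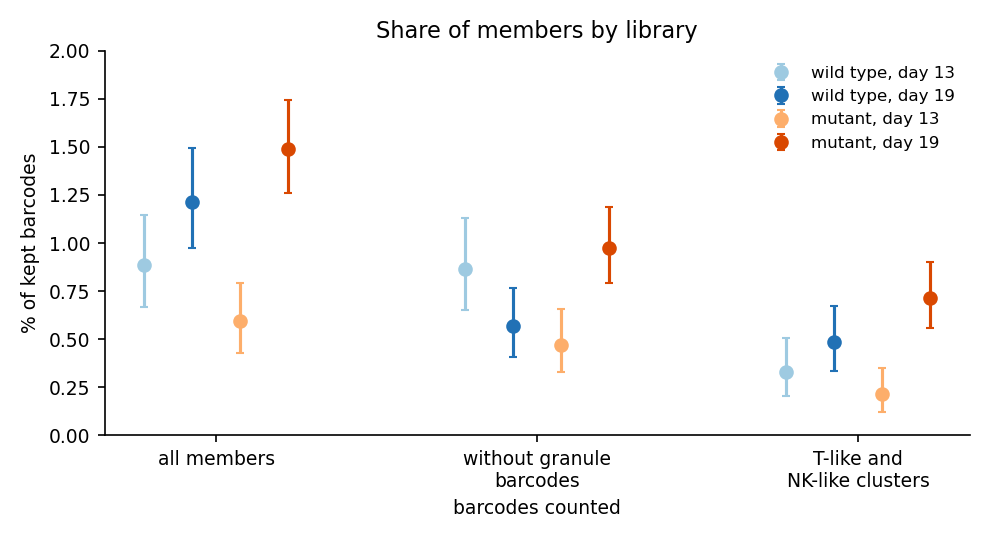
Share of kept barcodes (y axis, %) that were members, members without granule-gene barcodes, or members in the T-like and NK-like clusters, per library. Bars are exact 95% binomial intervals for counting error. The mutant at day 19 has the highest point in each set, and the wild type at day 19 drops from 1.22 to 0.566% when granule-gene barcodes are left out.

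The T-like cluster held 11, 19, 1 and 25 barcodes, which were 19.6, 21.6, 2.27 and 16.9% of members. The NK-like cluster held 10, 16, 15 and 46 barcodes, which were 17.9, 18.2, 34.1 and 31.1%. The single T-like barcode of the mutant at day 13 became 7 when cartilage genes were left out of the clustering and 20 when a cut on UMIs replaced it. These shares moved when the members were clustered again under other settings, with the NK-like share of the wild type at day 13 ranging up to 67.3%, and they are given as a description of 1 clustering. The genes that defined the clusters were not left out, so cluster sizes are not compared between genotypes.

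Cd3d and Cd3g, which encode the delta and gamma chains of CD3, were found in NK-like barcodes without Cd3e. A UMI of Cd3d or Cd3g was present in 47 of 87 NK-like barcodes, and both were present in 15. Of those 47 barcodes, 25 also held a Ncr1 UMI. The cluster held 107 UMIs of Cd3d plus Cd3g and 0 of Cd3e, which allows a Cd3e UMI in up to 3.45% of its barcodes at this depth and does not limit the share of cells that express the gene. In the T-like cluster 51 of 56 barcodes held Cd3d or Cd3g, 29 of them with Cd3e, and the UMIs were 244 against 49. The ratio of Cd3d plus Cd3g to Cd3e therefore differed between the clusters, although Cd3 genes were among those clustered and no test is given.

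Thinning each barcode to 1000 UMIs left Cd3d in 16.1% and Cd3g in 13.8% of NK-like barcodes. In cartilage-rich barcodes, which should lack both genes, the thinned shares were 0.0277 and 0.00923%, and in neutrophil-rich barcodes 2.13 and 0.0332%. Median depths were 2780, 11590 and 2846 UMIs. Members were picked for UMIs of these genes and the other barcodes were held below the score, so the higher NK-like shares follow from the rule and nothing is read from them. The receptor constant segments were also present in NK-like barcodes, with Trbc1 in 65 of 87, Trbc2 and Trdc in 26 each and Trac in 4. Trbc1 and Trbc2 are near-identical copies, so their reads may be split between them.

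Cd3d in the NK-like cluster lay mostly in the mutant libraries. It gave 1 UMI in 10 wild-type barcodes at day 13, 2 in 16 at day 19, 23 in 15 mutant barcodes at day 13 and 28 in 46 at day 19. Barcodes with a UMI numbered 1, 2, 8 and 16, and levels were 25, 21, 232 and 230 CPM. Cd3g gave 6, 1, 15 and 31 UMIs in 3, 1, 8 and 23 barcodes, at 148, 10.4, 151 and 254 CPM. In CPM within this cluster, Cd3d was thus higher in the mutant library at both ages, while Cd3g was level at day 13 and higher in the mutant at day 19. Trbc1 gave 4, 21, 48 and 90 UMIs in 3, 8, 13 and 41 barcodes, or 98.4, 218, 484 and 739 CPM, while Trbc2 gave 14, 24, 6 and 16 UMIs, or 344, 250, 60.5 and 131 CPM. Trbc1 had the same genotype order outside the members, at 0.386, 0.515, 3.36 and 9.08 CPM in all non-members and 0, 0, 65.3 and 44.9 CPM in granule-gene non-members. This split by library was chosen after its values were seen and has no replicate. Cd3d, Cd3g and Trbc2 are rule genes, and Cd3 genes were among those clustered. The mutant at day 13 had 1 T-like barcode in this clustering and 20 by a cut on UMIs. Where its barcodes with CD3 UMIs were placed thus depended on the method, and no genotype difference is read from these values. The split covers the NK-like cluster alone. Cluster 0, which also held NK genes, gave 14, 0, 37 and 4 Cd3d UMIs in 9, 0, 11 and 2 of its 30, 3, 16 and 12 barcodes. In the wild type at day 13 it thus gave more Cd3d UMIs than the NK-like cluster.

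Among effector genes of the NK-like cluster, Gzma was at 4157, 3692, 3844 and 3881 CPM, nearly level over the 4 libraries. Ccl5, a chemokine stored by killer cells, was at 2460, 2496, 2442 and 10830 CPM. The mutant library at day 19 stood apart, with 1320 UMIs and Ccl5 in 45 of 46 barcodes, so the level did not come from a single barcode. The mutant-to-wild-type log2 ratio at day 19 was 2.12, with a 95% interval for counting error of 1.92 to 2.32. At day 13 it was -0.01, with an interval of -0.35 to 0.34. Different clusters held the NK-gene barcodes of different libraries: cluster 0 held 30, 3, 16 and 12 of them and the NK-like cluster 10, 16, 15 and 46. In cluster 0 Ccl5 gave 610, 57, 314 and 383 UMIs, or 5689, 11250, 4518 and 8426 CPM. The wild type at day 19, with 3 barcodes and 43 of its 57 UMIs in 1 of them, was thus the highest there. In cluster 0 the wild type was above the mutant at both ages, which at day 19 rests mostly on that barcode. Over both clusters Ccl5 stood at 4801, 2934, 3298 and 10180 CPM. In that sum the mutant at day 19 was the highest, and the wild type was above the mutant at day 13. Ifng, the cytokine interferon gamma, gave 21, 34, 7 and 90 UMIs. Ccl4 gave 15, 17, 3 and 59, of which 31 of the 59 lay in 1 barcode. The proliferation genes Top2a and Mki67 gave 9, 66, 64 and 13 UMIs and 4, 21, 49 and 5 UMIs. Both were lowest per barcode in the mutant at day 19, the library with the most Ccl5.

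Members were also compared between genotypes with their counts summed per library, in an edgeR quasi-likelihood fit over all 4 libraries with age as a term. The fit has 1 residual degree of freedom, and each genotype at an age is 1 library, so its p-values do not measure the spread between mice. It called 6 of 5772 genes at an adjusted p under 0.05, or 0.104%, of which 4 were higher in mutants (0.0693%) and 2 lower (0.0347%). At an unadjusted p under 0.05 there were 89 genes. Leaving out the barcodes marked as doublets left 1 call, Stfa1.

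The lower genes were Stfa1 and Klra4. Stfa1 encodes a cysteine protease inhibitor (stefin A) of neutrophils. It gave 87 UMIs in members of the wild type at day 13, 69 at day 19 and 0 in both mutant libraries, in 6, 9, 0 and 0 barcodes. All 69 UMIs of the wild type at day 19 lay in granule-gene barcodes. Without those barcodes Stfa1 gave 87, 0, 0 and 0 UMIs, so the order at day 19 was not seen, and the gene did not pass the filter on low counts, so it has no call in that set. No Stfa1 UMI was found in the T-like or NK-like cluster. Over all members the fitted log2 change of Stfa1 was -9.66 ± 0.98 (SE; edgeR adjusted p = 0.00117), which depends on the prior count because the mutants were at 0. The same order was seen outside the members, where Stfa1 stood at 158, 99.6, 5.0 and 0.444 CPM. Stfa1 has near-identical neighbours, so reads may be split among them.

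Klra4 encodes Ly49D, a Ly49 receptor, at chr6:130043731-130067271. Outside the members it gave 8, 3, 0 and 1 UMIs, which are few but also higher in the wild type at each age. In members it gave 28, 49, 2 and 3 UMIs, or 128, 46.5, 5.83 and 3.57 CPM, and both wild-type libraries were above both mutants. The edgeR log2 change was -3.97 ± 0.64 (adjusted p = 0.0221). Without marked doublets it was -3.99 with an adjusted p of 0.0973. Over 13 alternatives the change stayed between -5.18 and -3.56, and it was called in 7 of them, with adjusted p from 4.1e-05 to 1.

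The Ly49 family was therefore described as a whole, in members without granule-gene barcodes. Of 11 annotated Klra genes on chromosome 6, 10 had a UMI. In the fit over all members 4 were tested and 1 was called, where 0.104% of all genes were called. Without granule-gene barcodes the log2 change of Klra4 was -4.19 (edgeR adjusted p = 0.00501), and Klra4 gave 28, 47, 2 and 3 UMIs. Klra3, at chr6:130323289-130337574, was singled out after its values were seen and gave 3, 4, 28 and 33. Klra4 and Klra3 together gave 31, 51, 30 and 36 UMIs, of which Klra3 made up 9.68, 7.84, 93.3 and 91.7%. In CPM the sum was 159, 264, 144 and 122, so it was lower in the mutant at day 19, and the gene that supplied most of it differed between the genotypes at both ages.

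Klra3 in all members was not called, with a log2 change of 3.00 ± 0.63 (edgeR adjusted p = 0.137). A Klra3 UMI was found in 2, 2, 8 and 21 barcodes and a Klra4 UMI in 10, 12, 1 and 3, so no single barcode carried either pattern. Both genes were found together in 3 barcodes. Of the rest, Klra5 gave 1, 0, 10 and 9 UMIs and Klra8 gave 15, 0, 0 and 0. Klra1 gave 28, 4, 4 and 7, Klra7 gave 19, 22, 13 and 9, Klra9 gave 18, 9, 3 and 15, and Klra6 gave 2, 4, 0 and 0. Klra5 thus had the order of Klra3, while Klra1 and Klra8 were high in the wild type at day 13 alone. Family totals were 114, 90, 60 and 79 UMIs, or 585, 466, 287 and 268 CPM.

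Members of this family are close copies, and counting can move reads between them. Of 50-base words in the last 500 bases of the transcripts, where 3′ reads fall, Klra4 shared 4.66% with any other Klra gene and Klra3 shared 31.5%, of which 22.5% with Klra9. Klra3 and Klra4 shared 0 such words with each other. Their printed promoter windows were 48.1% identical over 385 aligned positions, against 85.0% for Klra3 and Klra9 and 86.1% for Klra4 and Klra8. Among other NK receptor genes, Klre1 gave 34, 75, 23 and 28 UMIs, or 174, 389, 110 and 94.9 CPM, so it too was lower in the mutant library at each age. Klrd1, a rule gene, gave 84, 86, 84 and 104 UMIs. Inbred mouse strains are known to differ in their Ly49 genes. The labels name no strain, so any strain difference between the genotypes cannot be told apart from the genotype.

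**Figure D4:**
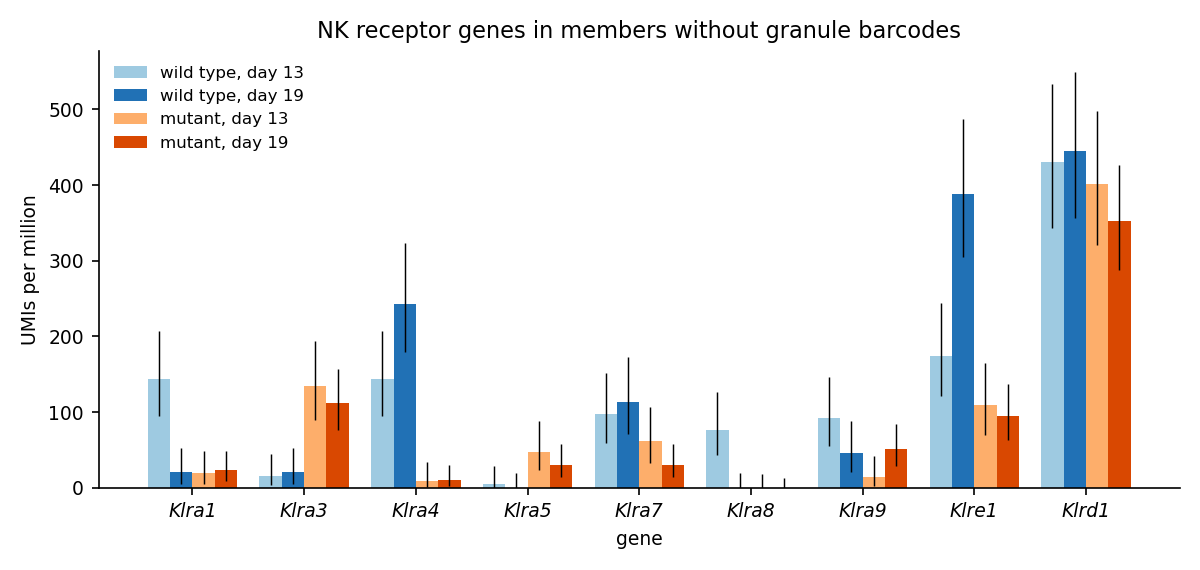
CPM (y axis) of 7 Klra genes, Klre1 and Klrd1 (x axis) in members without granule-gene barcodes, with 1 bar per library and exact Poisson 95% intervals for counting error. Klra4 is high in both wild-type libraries and Klra3 in both mutant libraries, while Klrd1 intervals overlap over all 4.

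The 4 higher genes were bone and fibrous matrix genes, and none of them is on a lymphoid list. Col1a1 and Col1a2, the chains of collagen I, gave 80, 24, 837 and 315 UMIs and 82, 33, 595 and 431 UMIs. The edgeR log2 changes were 3.36 ± 0.45 (adjusted p = 0.00837) and 3.1 ± 0.50 (adjusted p = 0.0221). Ibsp, bone sialoprotein, gave 4, 8, 75 and 59 UMIs, and Bglap, osteocalcin, gave 0, 1, 18 and 39. Their log2 changes were 3.36 ± 0.53 and 5.67 ± 0.90 (both adjusted p = 0.0221). All 4 were higher in the mutant library at each age.

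In the mutant at day 13, 1 barcode of cluster 0, marked as a doublet, held 584 of the 837 Col1a1 UMIs and 308 of the 595 Col1a2 UMIs. Without it that library held 253 and 287. With all marked doublets left out, the edgeR log2 change was 2.45 for Col1a1 (adjusted p = 1.0), 2.42 for Col1a2, 3.31 for Ibsp (adjusted p = 0.101) and 5.66 for Bglap (adjusted p = 0.0973). The non-member barcodes had the same order at each age, with Col1a1 at 4208, 1120, 12970 and 6576 CPM and Ibsp at 425, 523, 8132 and 3165 CPM. The part of RNA from other cells in these 4 calls was not tested.

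**Figure D5:**
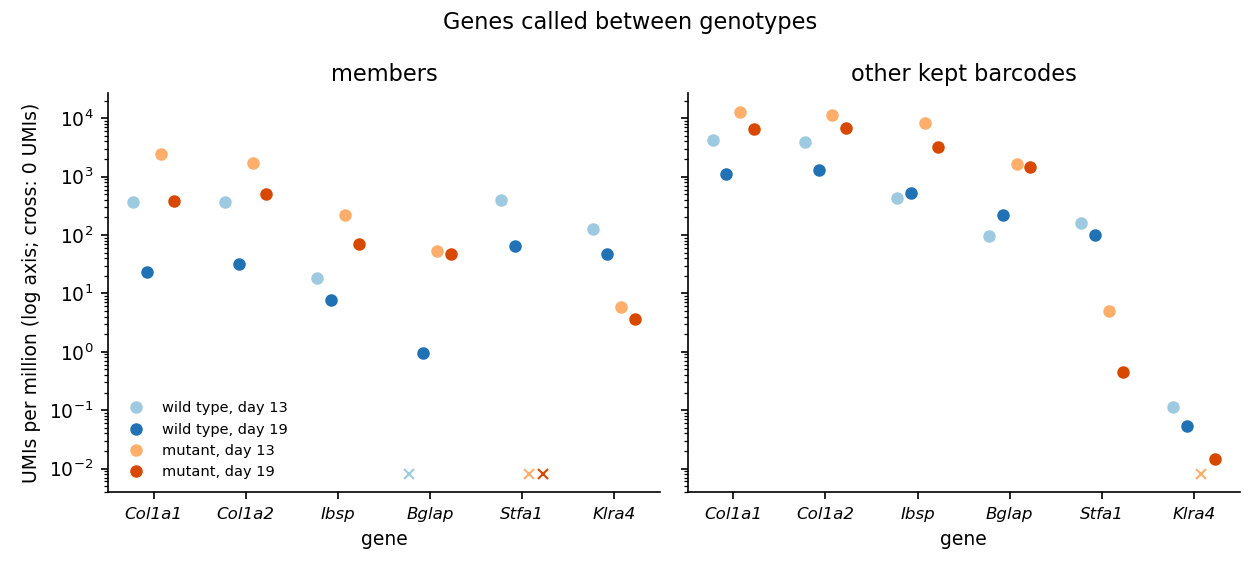
CPM (log y axis) of the 6 genes called between genotypes (x axis), in members (left) and in all other kept barcodes (right), with 1 point per library and a cross for 0 UMIs. The order of genotypes at each age is the same in both panels for all 6 genes. For Klra4 the right panel rests on only 8, 3, 0 and 1 UMIs.

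The lymphoid lists, chosen with earlier results of these data known, gave 1 called gene, Klra4. The rule genes were left out of these lists. Of 14 other NK receptors 12 were tested, 0 rose and 1 fell, and their median log2 change was -0.48 against 0.03 over all 5772 genes. None of the 4 other tested genes of the T cell receptor and CD3 list was called (median 0.31), nor any of the 8 other cytotoxic granule genes (median 0.26) or the 13 lymphoid transcription factors (median 0.24). Among the 6 tested osteoblast and fibroblast markers 4 rose, with a median of 3.23. Chondrocyte markers had a median of -1.72 with none of 8 called. In summed level the osteoblast and fibroblast markers stood at 1104, 70.3, 4841 and 1128 CPM in members and the chondrocyte markers at 19490, 720, 1827 and 1552 CPM. Cartilage RNA was thus highest in the wild type at day 13, and its part in the members' other values was not tested.

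Leaving out granule-gene barcodes, 6 of 2617 genes were called between genotypes (0.229%), 5 higher in mutants (0.191%) and 1 lower (0.0382%). In the T-like and NK-like clusters 6 of 1825 were called (0.329%), 4 higher (0.219%) and 2 lower (0.11%). Both sets were chosen after the data were seen. The 4 higher genes in the clusters were again matrix genes: Ibsp, Col1a1, Col1a2 and Chad, which encodes a cartilage matrix protein (chondroadherin). The lower ones were Klra4, which fell by 3.56 on the log2 scale, and Trbc2, with 70, 159, 14 and 89 UMIs. Trbc2 is a rule gene and was among the genes clustered, so its count is a description and nothing is read from its call.

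Between ages, the fit over all members called 1 of 5772 genes, or 0.0173%, with 611 at an unadjusted p under 0.05. Col1a1 was lower at day 19, with a log2 change of -3.28 ± 0.45 (edgeR adjusted p = 0.0205), and this call too was lost without marked doublets. No gene of the lymphoid lists was called. Without the rule genes, the median log2 change was -1.08 for the T cell receptor and CD3 list and -1.30 for NK receptors, against 0.01 over all genes. Without granule-gene barcodes these medians were 0.39 and 0.11, against -0.02 over all genes. The lower lymphoid medians at day 19 were therefore seen only in the sum that held granule-gene barcodes, of these 2 sums.

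Without granule-gene barcodes 9 of 2617 genes were called between ages (0.344%), 7 higher (0.267%) and 2 lower (0.0764%) at day 19. In the T-like and NK-like clusters 9 of 1825 were called (0.493%), 8 higher (0.438%) and 1 lower (0.0548%). The lower one was the proliferation gene Mki67, with 22, 29, 49 and 14 UMIs. Of the 22 in the wild type at day 13, 15 lay in 1 T-like barcode. In the NK-like cluster alone Mki67 stood at 98.4, 218, 494 and 41.0 CPM, so in the wild type it was higher at day 19 there. The genes called higher at day 19 included haemoglobin genes, Ifi27l2a, S100a4 and the neutrophil gene S100a9, which gave 2, 35, 10 and 65 UMIs. Without granule-gene barcodes the higher genes were haemoglobin genes, the erythroid genes Slc4a1 and Alas2, and Ifi27l2a, an interferon-stimulated gene. Ifi27l2a gave 10, 121, 11 and 77 UMIs (log2 change 2.95, edgeR adjusted p = 0.0114), so that both day 19 libraries were above both day 13 libraries. In the T-like cluster it gave 2, 88, 2 and 51 UMIs, found in 2, 9, 1 and 12 of the 11, 19, 1 and 25 barcodes. Of the 88 UMIs, 55 lay in 1 barcode. The mutant had 1 T-like barcode at day 13, so its UMIs in this cluster are not compared between ages. Outside the members Ifi27l2a stood at 30.1, 361, 100 and 137 CPM, also higher at day 19 in both genotypes. Erythroid markers in these members summed to 1221, 31980, 890 and 19150 CPM, and their part in these calls was not tested.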

How the data were processed

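Single-cell RNA was measured in 4 libraries, 1 per genotype and age. The deposited values are UMI counts per gene and barcode, made by the authors with Cell Ranger 3.1.0 per the file headers; the submitters' processing notes also name mm10 and Seurat 3, with no role given. Every count column was mapped to its sample, and 0 columns were left unused. Cells are not replicates, so shares and sums per library carry exact intervals (95%, counting error only), and a count of 0 is given with a floor of 3 counts. No library shares both genotype and age with another, so there is no spread between like libraries. The 1 residual degree of freedom of the fit is the difference of the genotype change between the ages. The p-values rest on it and on dispersion shared across genes. No label says that libraries came from separate mice, and the p-values do not measure the spread between mice.

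Members were clustered with scanpy 1.11.5 and igraph 0.11.9 (Leiden, resolution 1, 15 neighbours, 20 components, 1000 variable genes). Clusters were named from listed markers, apart from cluster 0, which the markers placed with chondrocytes and which was left unnamed. Doublets were scored per library with Scrublet and kept in the main values. Its automatic threshold marked 86, 0, 0 and 293 kept barcodes, so a score of 0.25 was chosen after seeing this, which marked 100, 85, 126 and 243. Summed counts were tested with edgeR 4.0.16 (R 4.3.3, limma 3.58.1; quasi-likelihood, TMM, filterByExpr, Benjamini-Hochberg at 0.05) with genotype and age as terms. DESeq2 1.42.0 was an alternative. On simulated data the fit recovered 96% of 200 genes changed 4-fold at a dispersion of 0.01 with 21 false calls among 5769 genes, and 87% at 0.05 with 13 false calls among 5758. For 2-fold changes it recovered 56.5 and 0%. The dispersion of the members was 0.1075, above both. Gene positions came from GENCODE M21, which matched 30934 of 31053 features, and promoter sequences from RefSeq.

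The genes named are those of the rule, Sox9 and Col2a1, the most abundant genes per list, called genes and cluster leaders; others are said to be chosen after their values were seen. These include Cd3d, Cd3g, Trbc1, Trbc2, Ccl5, Ccl4, Ifng, Top2a and Mki67 by library in clusters. The members and lists were chosen with earlier results of these data known.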

Additional observations from a re-analysis of the deposited data

Results flagged for a closer look

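The results here have opposite mutant-to-wild-type differences at days 13 and 19. With 1 library per genotype and age the difference between the ages was not tested. As a share of kept barcodes, members differed by -0.291 percentage points (mutant minus wild type) at day 13 and 0.274 at day 19. Without granule-gene barcodes the differences were -0.396 and 0.409. Of blood cell barcodes they were -2.89 and 1.1, and -3.26 and 1.09 without granule-gene barcodes.

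Of the 70 named genes of the lymphoid lists, 25 had log2 ratios of mutant to wild type in all members that took opposite signs at the 2 ages, with both counting intervals off 0, or 35.7%. Over all 5772 tested genes the same held for 329, or 5.7%. The named genes are the most abundant of their lists, which narrows their intervals, and Klrd1 among them is a rule gene. Pairs of values below are day 13, then day 19. Among T cell genes and lymphoid factors these were Trbc1 (-0.564 and 1.23), Skap1 (-0.969 and 0.714), Id2 (-1.27 and 0.526) and Ets1 (-0.699 and 1.25). Among receptors and granule genes they were Tyrobp (-0.539 and 0.271), Klrd1 (-0.647 and 0.568), Srgn (0.361 and -0.113) and Serpinb6b (-0.91 and 0.731). Cytokines and chemokines were Ifng (-1.88 and 0.578), Ltb (-1.33 and 0.529), Ccl5 (-1.11 and 2.06), Xcl1 (-1.25 and 0.47) and Ccl4 (-4.05 and 2.12). The IL-18 receptor chains were Il18rap (-1.11 and 1.23) and Il18r1 (-1.38 and 1.71). Activation genes were Dusp2 (-0.529 and 0.525), Nr4a1 (-0.632 and 0.972), Tnfaip3 (-1.55 and 1.24) and Junb (-0.801 and 0.891). Ly6c2 (2.05 and -0.916) and the class I gene H2-D1 (-0.408 and 0.229) were also among them. The cell cycle genes had the other order: Hmgb2 (0.812 and -0.669), Tubb5 (0.357 and -0.643), Top2a (1.44 and -0.978) and Birc5 (1.46 and -1.28).

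The granule-gene share of member UMIs was higher in the mutant at day 13 (39.1 against 11%) and lower at day 19 (64.8 against 81.7%). Without these barcodes 15 of the 25 genes kept opposite signs, and 6 had both intervals off 0: Birc5, Ccl4, Ccl5, Hmgb2, Top2a and Tubb5. Over all 2617 genes tested without these barcodes, 150 had opposite signs with both intervals off 0, or 5.73%. The 6 are therefore a description, and nothing is read from their number.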

How the results depend on the processing

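Shares of members kept within their interval in 23 of 40 alternatives. Those that moved were, at 1000 genes, 0.663% (wild type, day 13) and 1.76% (wild type, day 19). With a score of 12 they were 0.815% (wild type, day 19) and 1.07% (mutant, day 19), and with a score of 6, 1.95% (mutant, day 19). Without S100a8 and S100a9-rich barcodes the day 19 shares were 0.746 and 1.16%, and without granule-gene barcodes 0.566 and 0.976%. In the T-like and NK-like clusters shares were 0.331, 0.483, 0.215 and 0.714%, and of blood cell barcodes 5.17, 2.0, 2.28 and 3.1%.

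The cluster shares moved in 22 of 72 alternatives. T-like shares with a cut on UMIs in place of clusters were 41.1, 45.5 and 29.7% (wild type day 13, mutant day 13, mutant day 19), and 15.9% without cartilage genes (mutant day 13). NK-like shares in the wild type at day 13 were 52.2 (score 6), 42 (score 12), 66.7 (1000 genes), 67.3 (10% mitochondrial), 7.27 (no doublets), 33.3 (no neutrophil-gene barcodes) and 42.9% (cut), and at day 19 69.3% (cut). In the mutant at day 13 they were 57.7 (score 6), 60.5 (at least 3 score UMIs), 60.5 (1000 genes), 67.4 (10% mitochondrial) and 2.70% (no neutrophil-gene barcodes). In the mutant at day 19 they were 10.4 (score 12), 41.1 (10% mitochondrial), 8.70 (no neutrophil-gene barcodes), 46.6 (cut) and 14.2% (no cartilage genes).

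Against 6 genotype calls (4 higher, 2 lower), counts were 27 (18, 9) with a score of 12 and, separately, 27 (18, 9) without the filter on low counts. They were 2 (1, 1) at 1000 genes, 1 (0, 1) without doublets and 2 (2, 0) with DESeq2. The lower count was 1 without neutrophil-gene barcodes and 1 without granule-gene barcodes. No gene was called by edgeR with at least 3 score UMIs (71 at unadjusted p under 0.05), with DESeq2's size factors in edgeR (72) or with genotype as the only term (53), in either direction. Against 1 age call (0 higher, 1 lower), counts were 118 (58, 60) with a score of 12 and 127 (44, 83) without the filter. They were 2 (1, 1) without neutrophil-gene barcodes, 9 (7, 2) without granule-gene barcodes, 9 (8, 1) in the T-like and NK-like clusters and 9 (2, 7) with DESeq2. No gene was called between ages by edgeR with a score of 6 (670 at unadjusted p under 0.05), at least 3 score UMIs (548), 1000 genes (707), no doublets (466), DESeq2's size factors (533) or age as the only term (765).

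No called value changed sign. The cause of these changes was not tested. Leaving out granule-gene barcodes, keeping only the T-like and NK-like clusters and clustering without cartilage genes were alternatives chosen after seeing the data. No paired analysis was possible because each group holds 1 library and the labels share only replicate number 1. Depth limits the Ly49 genes and Cd3e, whose levels rest on few UMIs per library.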

Other observations

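In members without granule-gene barcodes, the summed cell cycle list stood at 2754 CPM in the wild type at day 13, 5060 in the wild type at day 19, 5029 in the mutant at day 13 and 1986 in the mutant at day 19. The chemokine and chemokine receptor list stood at 5175, 4408, 3259 and 8370 CPM in the same order, and was highest in the library lowest in cell cycle RNA. Ccl5 was the most abundant gene of that list over all members, at a mean of 2077 CPM against 168 for Xcl1, the next. Ccl5 gave 770, 644, 560 and 2141 member UMIs, and the sum without it was not taken. The cytotoxic granule list was nearly level, at 4821, 5273, 5440 and 5283 CPM. Interferon-stimulated genes summed to 549, 1264, 517 and 796 CPM and MHC class I genes to 3503, 4693, 3718 and 4487 CPM, so that both were higher at day 19 than at day 13 in each genotype. Without Ifi27l2a, of which 55 UMIs lay in 1 barcode, the interferon-stimulated sum was 498, 637, 464 and 535 CPM. Over all members the direction was turned for MHC class I, where 0 of 7 tested genes were above 0 between ages (median log2 change -0.49), and 4 of 10 interferon-stimulated genes were above 0 (median -0.08). Each value is from 1 library with no replicate.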
